A study of Sus scrofa with 12 samples.

Results

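Genes that restrain TGF-β, Activin and BMP signalling were followed in pig induced pluripotent stem (iPS) cells in which Activin A was supplied or its receptors were blocked. These 10 genes, of 24358 in the expression tables, were taken by symbol: the inhibitory SMADs SMAD7 and SMAD6, the secreted antagonist LEFTY2, the membrane proteins PMEPA1 and BAMBI, the nuclear co-repressors SKIL, SKI, TGIF1 and TGIF2, and the ubiquitin ligase SMURF2. All 10 had a row in each table. PC-iPS cells are iPS cells reprogrammed from pig pericytes, the contractile cells that wrap around small vessels.

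RNA was sequenced from 12 libraries in 4 groups of 3, all given as adult in stage. The WT PC-iPS libraries came from cells without the reporter. The knock-in libraries came from Nanog knock-in reporter PC-iPS, which carry the red fluorescent reporter tdTomato at NANOG, were sorted for it and were populations of transfected cells rather than clones. The Activin A and SB431542 libraries came from such knock-in cells given Activin A, a ligand of the pathway, or SB431542, an inhibitor of the Activin and TGF-β type I receptors. Neither dose nor time was in the labels, which name the same medium and 1 h of preplating to remove feeder cells for every library, whereas the study's methods describe the treatments in that medium without LIF. Values are FPKM, fragments per kilobase of transcript scaled to the mapped total of the library, held in 2 tables, with WT and untreated knock-in in one and both treated groups in the other.

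In this pathway Activin A, Nodal or TGF-β binds a receptor pair that phosphorylates SMAD2 and SMAD3, and these enter the nucleus with SMAD4 and switch on target genes. Several of the targets feed back on the pathway. SMAD7 occupies the type I receptors and brings ubiquitin ligases of the SMURF family to them, LEFTY2 blocks Nodal outside the cell, and SKIL, SKI, TGIF1 and TGIF2 bind SMADs on DNA and recruit histone deacetylases. SMAD6 acts mainly on the BMP branch, BAMBI is a receptor-like protein without a kinase, and PMEPA1 keeps SMAD2 and SMAD3 away from the receptor. In pluripotent cells of mice and humans the same branch supports expression of NANOG, a transcription factor of the pluripotent state.

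NANOG, which carries the reporter, was read first. Its level was 9.71, 16.4 and 27.6 FPKM in the WT libraries and 52.0, 101 and 70.4 FPKM in the knock-in libraries. It was 109, 195 and 157 FPKM with Activin A and 11.8, 27.2 and 11.8 FPKM with SB431542. The knock-in and WT groups did not overlap, nor did the treated groups, and the cells had been sorted on this gene's reporter. The pig annotation holds a pair of NANOG loci, so reads could be split between them. FPKM summed to between 364241 and 390320 per library. Depth, estimated from the steps between low FPKM values and set to 1 for the deepest library, was 0.564 to 0.637 in WT, 0.732 to 1 in untreated knock-in, 0.856 to 0.983 with Activin A and 0.841 to 0.949 with SB431542. Mitochondrial genes took 13.9% to 16.4% of the FPKM in WT and 9.43% to 11.5% in the other groups. The 10 pluripotency markers with a row summed to 373 to 574 FPKM in knock-in and 195 to 240 FPKM in WT, and to 364 to 561 FPKM with Activin A and 401 to 695 FPKM with SB431542, with ZFP42 listed at 0 in every library. NANOG and LIN28A carried most of the difference between knock-in and WT. Of 7 of these markers tested there, 5 had positive log2 differences, while SALL4 (-0.013) and DNMT3B (-0.40) did not. LIN28A, an RNA-binding protein of that list, rose in knock-in against WT (log2 difference 2.08, limma adjusted p = 0.0184), a call that held in 4 of 6 fits without a library (adjusted p at most 0.0616). In the treated comparison it ran opposite to NANOG, at 90.0, 200.04 and 67.5 FPKM with Activin A and 327, 498 and 192 FPKM with SB431542. The log2 difference was -1.55, with a limma adjusted p of 0.273, and of 0.0150 with the library number as a block. The study names 3 separately transfected knock-in lines, numbered as the knock-in libraries are, and nothing states which line each treated library came from. Nothing states that the WT replicates were separate cultures, so p-values measure only the spread between these libraries.

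The members spanned a wide range of levels. TGIF1 was the most abundant of the 10 in every group, with a mean of 27.7 FPKM in WT and 84.4 FPKM with Activin A, above 91.2% and 97.4% of all genes in those groups. TGIF2, SKI, SKIL, SMURF2 and BAMBI lay between 11.0 and 31.6 FPKM in every group mean, and PMEPA1 between 5.16 and 19.6 FPKM. SMAD6 and SMAD7 had means between 1.41 and 7.34 FPKM. LEFTY2 was the lowest of the 10 in every group and did not exceed 1.37 FPKM in any library.

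**Figure D1:**
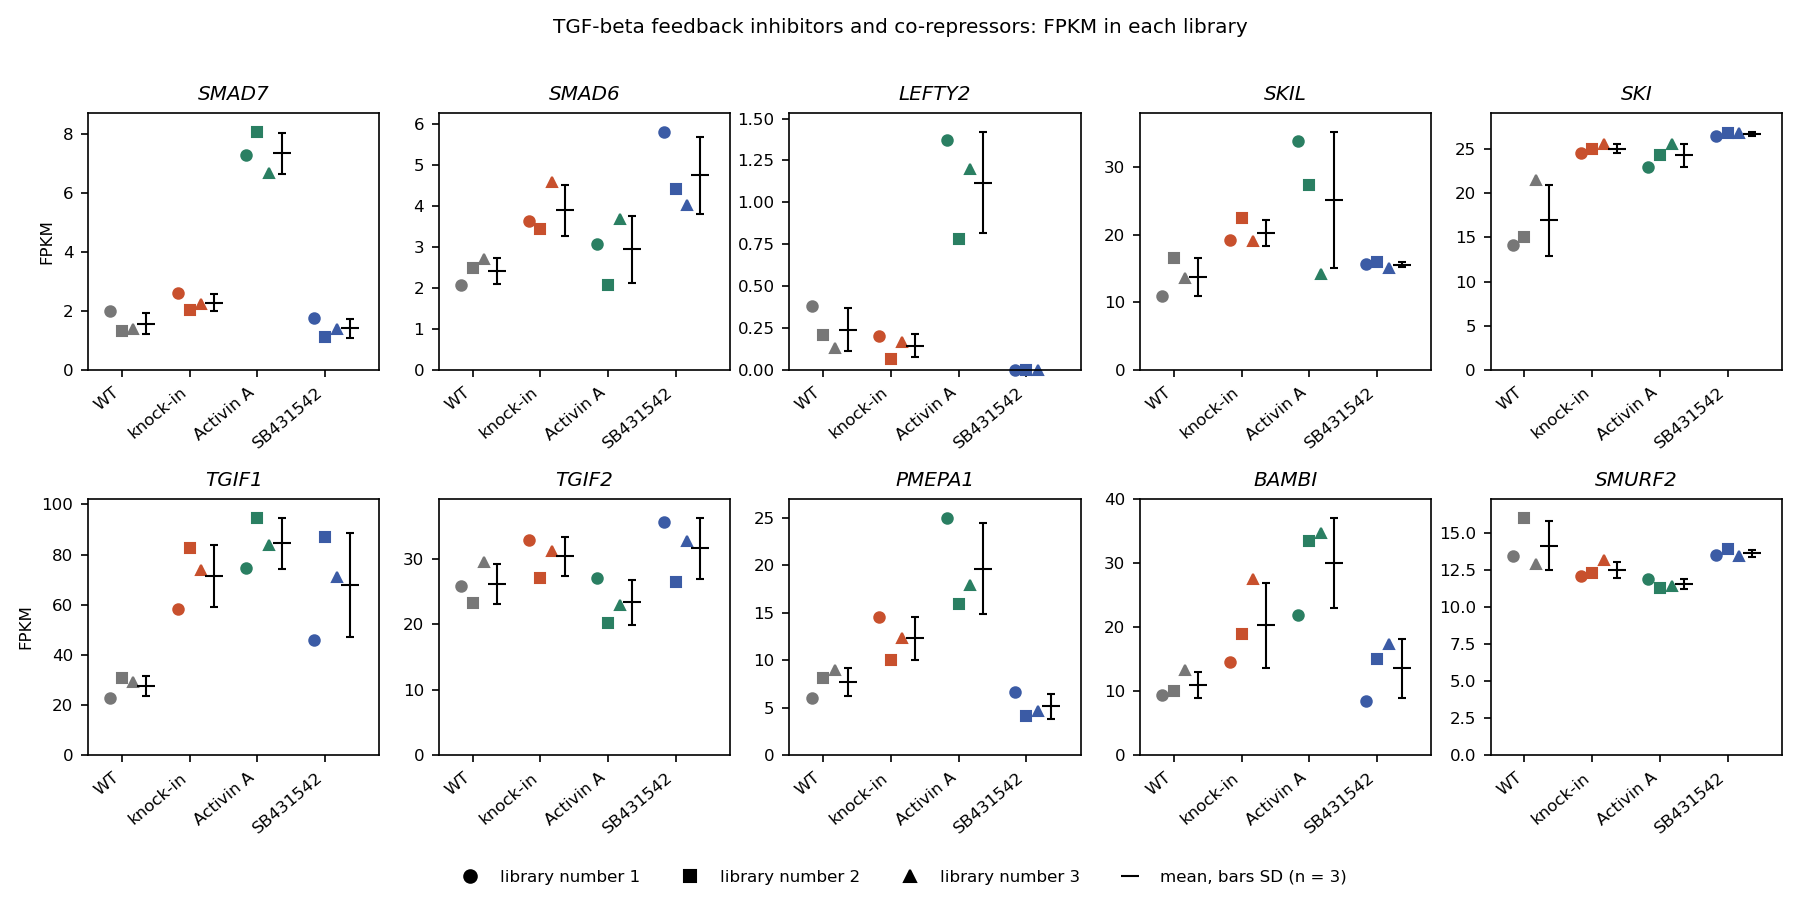
FPKM (y axis, from 0, a separate scale for each gene) of the 10 feedback genes in the 12 libraries, by group. Symbols give the library number, and bars give the mean and SD of 3 libraries except for LEFTY2 with SB431542, listed at 0 in all 3. SMAD7 is at 6.67 to 8.07 FPKM with Activin A and at most 2.59 FPKM elsewhere, and TGIF1 is at most 30.7 FPKM in WT and at least 45.9 FPKM elsewhere.

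The first comparison asked how far the feedback genes differed between cells with the pathway driven and cells with it blocked, that is, Activin A against SB431542. SMAD7, LEFTY2, PMEPA1 and BAMBI were higher with Activin A in every library, SMAD6, SKI and SMURF2 were lower in every library, and SKIL, TGIF1 and TGIF2 overlapped. LEFTY2 passed the filter on low values (at least 0.1 FPKM in 3 of 6 libraries) only through the Activin A group and is left out of the counts that follow. Of the other 9 members, 3 were higher and 3 lower without overlap, beside 9.19% and 10.8% of all 13999 genes tested. Differences were tested with limma on log2(FPKM + 1). Calling a gene required a log2 difference of 1 or more in size and an adjusted p no higher than 0.05. SMAD7 was called, 1 of 9 against 0.0929% of all genes tested. The numbers paired the treated libraries (the correlations are given with the processing). With the number as a block PMEPA1 and BAMBI were called too, 3 of 9 against 0.707% of all genes. The median log2 difference was 0.35 over the 9 genes and -0.0040 over all genes. The value for the 9 genes is that of TGIF1, which ran from 0.098 to 0.55 when 1 library was left out.

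SMAD7, at chromosome 1, 98512800 to 98543924 of the Sscrofa11.1 build (ENSSSCG00000004507), was 7.28, 8.07 and 6.67 FPKM with Activin A and 1.75, 1.11 and 1.37 FPKM with SB431542. The lowest Activin A library was well above the highest SB431542 library. The ratio of the means was 5.21, and the log2 difference was 1.80 (SE 0.14, limma adjusted p = 0.0237), higher for 3 of 3 numbers. Leaving out any 1 of the 6 libraries kept the difference between 1.70 and 1.90 and ended the call, with adjusted p-values of 0.0538 to 0.148. With the block it was called (limma adjusted p = 0.0163) unless number 1 was left out (0.105). SMAD6 (ENSSSCG00000004948, chromosome 1, 164652602 to 164735084), the other inhibitory SMAD, ran the opposite way. It was 3.08, 2.06 and 3.70 FPKM with Activin A and 5.81, 4.42 and 4.02 FPKM with SB431542, a log2 difference of -0.55 (SE 0.20) that did not pass the limma test (adjusted p = 0.325).

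Since FPKM is per length, the ratio of these inhibitory SMADs compares their levels directly. With SMAD7 higher and SMAD6 lower in every Activin A library, the ratio could not overlap between the treated groups, and it is given as a description. SMAD7 was 2.36, 3.91 and 1.81 times SMAD6 with Activin A and 0.30, 0.250 and 0.342 times SMAD6 with SB431542. Untreated knock-in cells lay between, at 0.712, 0.589 and 0.486, as did WT at 0.952, 0.533 and 0.517. SMAD7 thus exceeded SMAD6 in the 3 Activin A libraries and in none of the other 9. The log2 ratio differed by 3.11 ± 0.79 (SD over 3 numbers) between the treated groups.

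LEFTY2 (ENSSSCG00000032299, chromosome 10, 13849052 to 13853438) was listed at 1.37, 0.783 and 1.20 FPKM with Activin A and at 0 in all 3 SB431542 libraries. No test or fold is given against values listed at 0, since the size of the difference is set by what is added before the logarithm, 1.07 with 1 FPKM, 3.57 with 0.1 FPKM and 6.78 with 0.01 FPKM. Without any 1 Activin A library LEFTY2 was below the filter. The study itself displayed SMAD7 and LEFTY2 for this comparison from these samples, so they are not independent evidence. Some genes in general use, JUNB among them, were also listed at 0 in whole groups.

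The membrane inhibitors PMEPA1 and BAMBI were higher with Activin A in every library and were called when libraries were matched by number. PMEPA1 (ENSSSCG00000034259, chromosome 17, 57999287 to 58054329) was 25.0, 15.9 and 17.9 FPKM with Activin A and 6.66, 4.11 and 4.70 FPKM with SB431542. The difference hardly varied between numbers, at 1.76, 1.73 and 1.73 on the log2 scale. The estimate was 1.74, with SE 0.21 and an adjusted p of 0.0596 in limma without the block, and SE 0.068 and an adjusted p of 0.00831 with it. With median-ratio scaling and no block the adjusted p was 0.0499. The blocked call held when number 2 or number 3 was left out (limma adjusted p = 0.0234 and 0.0264) and was lost without number 1 (0.0621). BAMBI (ENSSSCG00000011014, chromosome 10, 40053368 to 40058590) was 21.9, 33.5 and 34.7 FPKM with Activin A and 8.49, 15.0 and 17.3 FPKM with SB431542. Numbers 2 and 3 were higher than number 1 within each treatment, while the differences by number were 1.27, 1.11 and 0.96. The log2 difference of 1.11 had an adjusted p of 0.201 in limma without the block (SE 0.28) and 0.0163 with it (SE 0.080). The blocked call was lost without number 1 (0.105) and without number 2 (0.0507).

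Among the nuclear co-repressors no difference was called. SKIL (ENSSSCG00000011746, chromosome 13, 109029831 to 109059176), which encodes SnoN, was 33.9, 27.4 and 14.2 FPKM with Activin A and 15.6, 15.9 and 15.2 FPKM with SB431542. The first and second Activin A libraries stood above all SB431542 libraries and the third below them, giving differences of 1.07, 0.75 and -0.084 by number and a mean of 0.58 (SE 0.29, limma adjusted p = 0.454). Its relative SKI (ENSSSCG00000040944, chromosome 6, 64188265 to 64242596) was nearly level, at 23.0, 24.4 and 25.6 FPKM against 26.5, 26.8 and 26.8 FPKM. The groups did not overlap, yet the log2 difference was -0.13 with a 95% interval of -0.30 to 0.036.

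TGIF1 (ENSSSCG00000024174, chromosome 6, 103226395 to 103234591), a homeobox co-repressor, was 74.8, 94.7 and 83.7 FPKM with Activin A and 45.9, 86.8 and 70.9 FPKM with SB431542, a log2 difference of 0.35 with an interval of -0.19 to 0.89. It was higher for 3 of 3 numbers, and with the block the interval was 0.044 to 0.66 (limma adjusted p = 0.174). TGIF2 (ENSSSCG00000036002, chromosome 17, 39840649 to 39858162), its close relative, was 27.0, 20.2 and 22.9 FPKM against 35.7, 26.5 and 32.7 FPKM, lower with Activin A for 3 of 3 numbers. Its log2 difference of -0.42 had a limma adjusted p of 0.318, and of 0.0430 with the block, under the fold set for a call. With the block and without number 1, 2 or 3, the limma adjusted p was 0.163, 0.135 and 0.103. RefSeq places a long non-coding RNA over TGIF2, and the sources used here do not state whether counting used strand, so reads of these genes cannot be told apart. SMURF2 (ENSSSCG00000032176, chromosome 12, 14368683 to 14492129), the ligase that SMAD7 recruits, was 11.9, 11.3 and 11.4 FPKM with Activin A and 13.5, 13.9 and 13.5 FPKM with SB431542. Its level was steady within groups and the log2 difference was -0.22 (SE 0.075, limma adjusted p = 0.312).

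**Figure D2:**
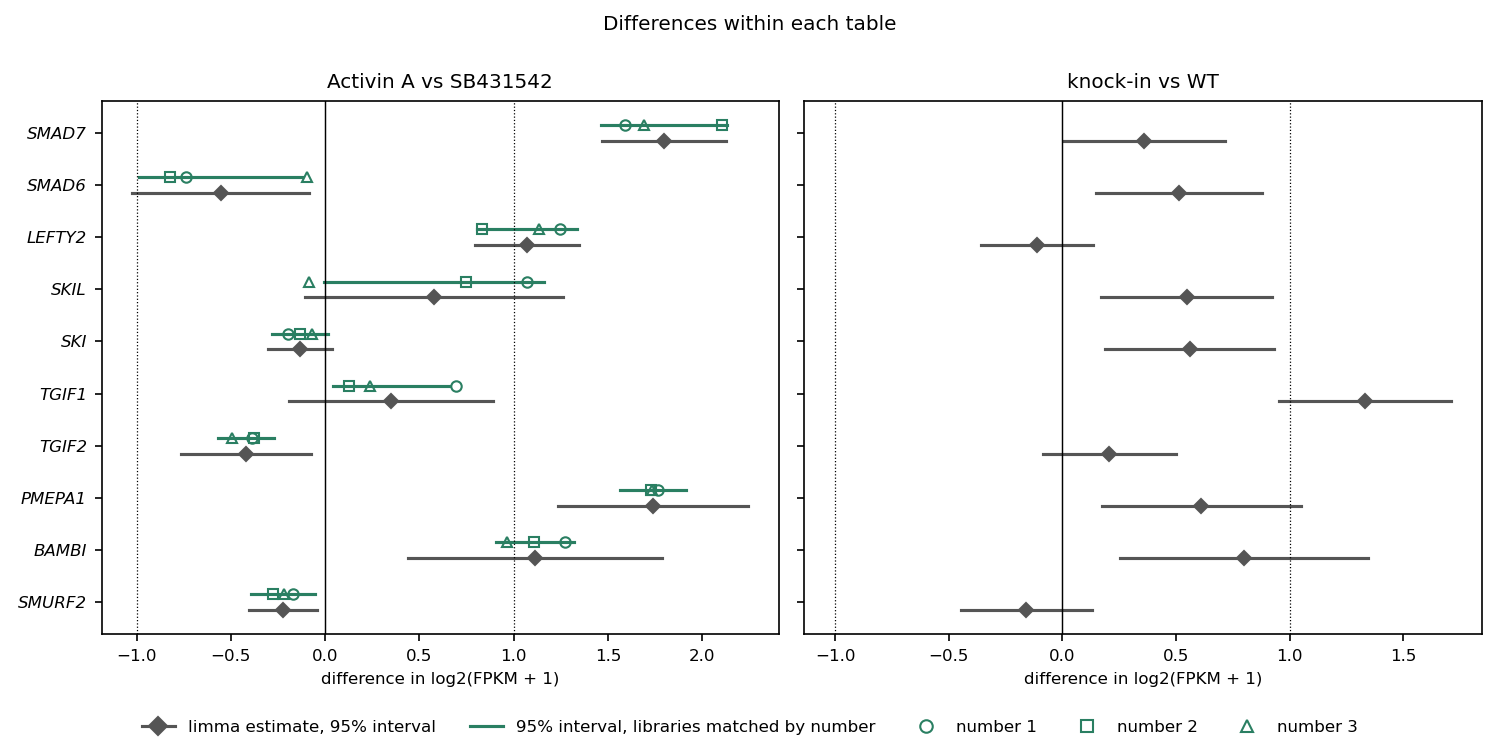
Differences of the 10 genes in log2(FPKM + 1) (x axis) for Activin A minus SB431542 (left) and knock-in minus WT (right). Diamonds and grey lines are limma estimates with 95% intervals, green lines are the intervals with the library number as a block, open symbols are the differences by number, and dotted lines mark a difference of 1. The left value of LEFTY2, listed at 0 with SB431542, is set by the added 1 FPKM. PMEPA1 lies at 1.74 with green symbols almost on top of each other, and TGIF1 is the only gene right of 1 in the knock-in panel, at 1.33.

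Untreated knock-in libraries show on which side of the untreated level the treated cells lay. The treated and untreated libraries are in different tables, which may have been normalised separately, so differences between libraries of the same number are given without a test. Both comparisons use the same 3 untreated libraries. With Activin A, SMAD7 was 2.81, 3.98 and 2.99 times its untreated level, a mean log2(FPKM + 1) difference of 1.34 ± 0.21 (SD, n = 3). With 1 FPKM added it was the only one of the 10 with a mean of at least 1 and the same sign for every number, against 0.229% of 13945 genes in that direction. PMEPA1 (0.62 ± 0.12), BAMBI (0.56 ± 0.24), TGIF1 (0.25 ± 0.098) and LEFTY2 (0.88 ± 0.12) were also higher for 3 of 3 numbers. LEFTY2 was 6.73, 11.8 and 7.16 times its low untreated level, and its mean difference became 2.32 with 0.1 FPKM added, 2.95 with 0.01 FPKM and 1.5 with TPM scaling, each past a fold of 1. It passed the filter here too only through the Activin A group. Of the other 9 members, 4 were higher for every number, beside 19.3% of all genes. SMAD6, TGIF2 and SMURF2, 3 of 9, were lower for every number, with means of -0.33 ± 0.19, -0.37 ± 0.084 and -0.11 ± 0.082, beside 18.8% of all genes. SKIL was above untreated for numbers 1 and 2 and below for number 3.

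With SB431542, PMEPA1 was 0.457, 0.412 and 0.381 times its untreated level, a mean log2 difference of -1.12 ± 0.10. With 1 FPKM added, PMEPA1 alone of the 10 passed the fold of 1 with a common sign, against 0.122% of 13983 genes in that direction. BAMBI (-0.56 ± 0.21), SMAD7 (-0.45 ± 0.068) and SKIL (-0.36 ± 0.10) were also below untreated for 3 of 3 numbers. LEFTY2 was 0.204, 0.0663 and 0.167 FPKM untreated and listed at 0 with SB431542, and was below the filter in this comparison. Of the 9 members that passed it, 4 were lower for every number, beside 19% of all genes. SKI and SMURF2 were slightly higher for every number (0.090 ± 0.019 and 0.11 ± 0.071, beside 19.9% of all genes), while SMAD6, TGIF1 and TGIF2 had mixed signs.

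The position of the untreated level within the treated range differed from gene to gene. For SMAD7 the Activin A side of the untreated level was the wider, at 1.34 against -0.45. For PMEPA1 the SB431542 side was the wider, at 0.62 against -1.12, and for BAMBI the sides were nearly equal, at 0.56 and -0.56. For TGIF2 the Activin A libraries were below untreated by -0.37 while the SB431542 libraries differed by 0.052 ± 0.071. These contrasts between sides were not tested.

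**Figure D3:**
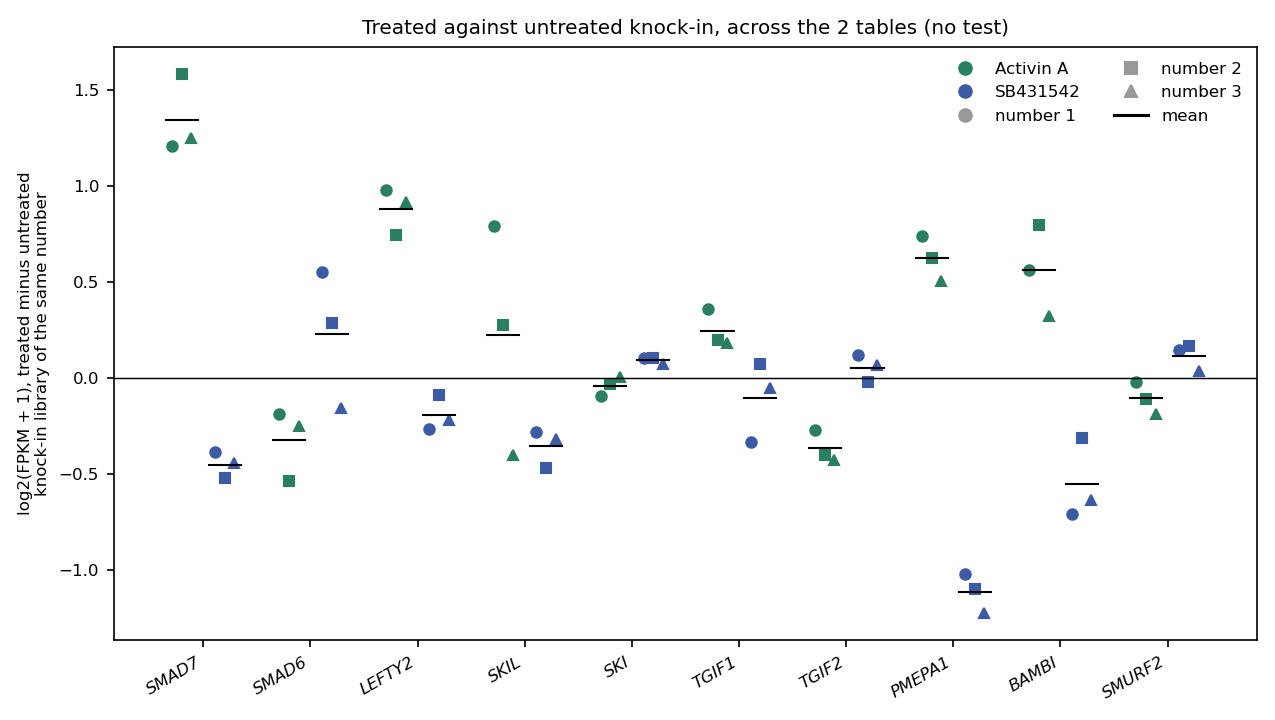
Difference in log2(FPKM + 1) (y axis) of each treated library from the untreated knock-in library of the same number, for Activin A (green) and SB431542 (blue). Symbols give the number and black lines the mean of 3, and the lines for SMAD7 lie at 1.34 and -0.45 and those for PMEPA1 at 0.62 and -1.12.

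The knock-in cells were then compared with WT PC-iPS cells, which asked whether the reporter cells resembled their parent line in these genes. TGIF1 was the only member called, 1 of 10 against 2.31% of 14014 genes tested. SMAD7, SMAD6, SKIL, SKI, TGIF1, PMEPA1 and BAMBI were higher in every knock-in library than in any WT library, 7 of 10 against 19% of all genes, and none of the 10 was lower without overlap, against 16.7%. The median log2 difference was 0.53 over the 10 genes and -0.0014 over all genes.

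TGIF1 was 58.1, 82.5 and 73.7 FPKM in the knock-in libraries and 23.1, 30.7 and 29.4 FPKM in WT. The WT libraries lay far below the knock-in libraries. The ratio of the means was 2.58 and the log2 difference was 1.33 (SE 0.16, limma adjusted p = 0.00928), and the call held without each of the 6 libraries in turn, with differences of 1.21 to 1.47. The study also displayed TGIF1 for this comparison from these samples. TGIF2 was not called, at 32.9, 27.0 and 31.2 FPKM against 25.8, 23.3 and 29.5 FPKM, a log2 difference of 0.21 with an interval of -0.087 to 0.50. TGIF1 was accordingly 1.77, 3.05 and 2.36 times TGIF2 in knock-in and 0.892, 1.32 and 0.997 times TGIF2 in WT. The log2 ratio differed by 1.15, a description, since the levels already given left no room for the ratios to overlap. The treated libraries kept TGIF1 above TGIF2, at 2.77 to 4.69 with Activin A and 1.29 to 3.27 with SB431542.

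The other 6 non-overlapping members were 1.46 to 1.85 times higher in knock-in by their means and did not pass the limma test after adjustment. BAMBI was 14.5, 18.9 and 27.6 FPKM in knock-in and 9.49, 10.1 and 13.4 FPKM in WT, a log2 difference of 0.80 (SE 0.23, adjusted p = 0.0802). PMEPA1 was 14.6, 9.99 and 12.3 FPKM against 6.04, 8.16 and 8.94 FPKM (0.61, adjusted p = 0.0888). In both genes the gap between the groups was smaller than the spread within WT. SKI, which with TGIF1 had its WT libraries below those of all other groups, was 24.6, 24.9 and 25.5 FPKM in knock-in and 14.2, 15.1 and 21.5 FPKM in WT (0.56, adjusted p = 0.0744). SKIL was 19.2, 22.5 and 19.1 FPKM against 10.9, 16.6 and 13.6 FPKM (0.55, adjusted p = 0.0814). SMAD6 was 3.65, 3.45 and 4.60 FPKM against 2.09, 2.48 and 2.70 FPKM (0.51, adjusted p = 0.0870). SMAD7 was 2.59, 2.03 and 2.24 FPKM against 1.99, 1.32 and 1.40 FPKM (0.36, adjusted p = 0.170), and the ratio of its means, 1.46, was close to those of SKIL and SKI, both 1.48.

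LEFTY2 and SMURF2 had negative differences with overlapping groups. LEFTY2 was 0.204, 0.0663 and 0.167 FPKM in knock-in and 0.381, 0.208 and 0.132 FPKM in WT (-0.11, limma adjusted p = 0.517). SMURF2 was 12.1, 12.3 and 13.2 FPKM against 13.5, 16.0 and 12.9 FPKM (-0.16, limma adjusted p = 0.425). At an unadjusted p under 0.05, 7 of the 10 members passed against 28.6% of all genes, and in the comparison of the treated groups 6 of the 9 members other than LEFTY2 passed against 12.8%.

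**Figure D4:**
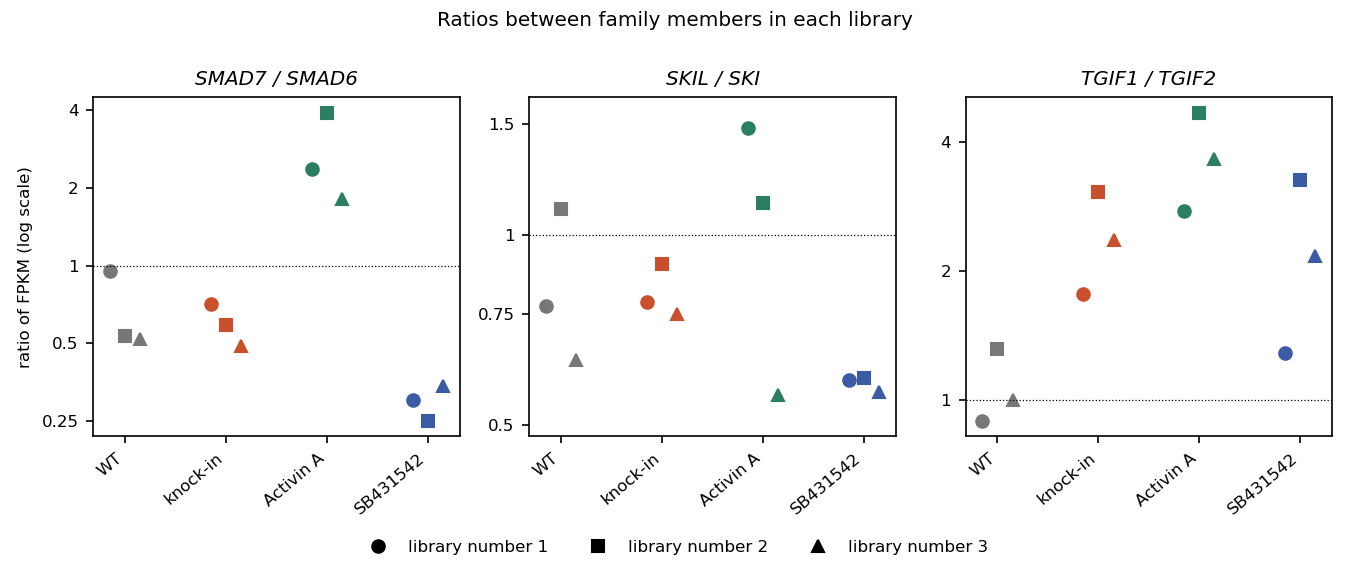
Ratio of FPKM between related members in each library (y axis, log scale), with a dotted line where both are equal and symbols for the library number. SMAD7 exceeds SMAD6 only with Activin A (1.81 to 3.91), SKIL to SKI is 0.557 to 1.48 with Activin A and 0.565 to 0.594 with SB431542, and TGIF1 to TGIF2 is 0.892 to 1.32 in WT and 1.29 to 4.69 elsewhere.

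The depth and marker values differed between the same groups. WT libraries were the shallowest and had the highest mitochondrial share, as given above. Summed FPKM of 10 fibroblast markers was 63.3 to 92.4 in knock-in and 33.6 to 45.0 in WT, and 82.6 to 119 with Activin A and 47.3 to 52.1 with SB431542. POSTN was at 0 in the knock-in and SB431542 groups. DCN was the fibroblast marker called in knock-in against WT. The collagen COL1A2 had the smallest adjusted p of the list in the treated comparison (1.59, limma adjusted p = 0.0932, and 0.0236 with the block). The collagen COL3A1 was called there with the block (3.08, limma adjusted p = 0.0121) and not without it (0.201). It was 6.57, 7.47 and 42.9 FPKM with Activin A and 0.016, 0.215 and 2.73 FPKM with SB431542. With SB431542 values this low, the size of its difference depends on the added 1 FPKM. Of 7 fibroblast markers tested, 5 had positive differences in each comparison. COL1A1 and PDGFRA were negative in both, at -0.39 and -0.16 in knock-in against WT and -0.10 and -0.013 with Activin A. The 9 pericyte markers summed to 50.2 to 52.1 in knock-in and 29.2 to 31.9 in WT, and to 44.8 to 50.6 with Activin A and 59.8 to 61.1 with SB431542. Of these, smooth muscle actin ACTA2 (2.61, limma adjusted p = 0.00159) and the receptor PDGFRB (1.64, 0.0116) rose in knock-in, and ACTA2 was lower with Activin A, at 8.32 ± 0.89 against 19.4 ± 1.1 FPKM (SD, n = 3; -1.13, limma adjusted p = 0.0346). Dropping any 1 of the 6 libraries ended that call (limma adjusted p 0.0902 to 0.161). ACTA2 made up much of the difference between the treated sums. Of 8 pericyte markers tested there, RGS5 (0.63), NOTCH3 (0.41) and CSPG4 (0.085) had positive differences, and the median was -0.084. The 8 trophectoderm markers summed to 77.5 to 513 in knock-in and 13.0 to 19.5 in WT, and to 85.4 to 472 with Activin A and 121 to 946 with SB431542, with CDX2 at 0 throughout. KRT8 (4.13, limma adjusted p = 0.0251) and TFAP2A rose in knock-in, calls that held in 3 and 4 of 6 fits without a library (adjusted p at most 0.0764 and 0.0596). KRT8 carried much of that sum (100, 334 and 35.3 FPKM with Activin A against 200.1, 835 and 90.4 FPKM). With the block KRT8 was called lower with Activin A (-1.21, limma adjusted p = 0.0150) while GATA2 (2.28, 0.0340) and TFAP2C (1.51, 0.0187) of the same list were called higher. Their part in the differences of the feedback genes was not tested. In bulk RNA a change in the share of cells of a type and a change in RNA per cell cannot be told apart.

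The rest of the pathway was read from lists of its other genes. Of 17 receptors and transducing SMADs tested, limma called none in either comparison, with or without the block. In knock-in against WT 2 had an unadjusted p under 0.05, beside 28.6% of all genes. Between the treated groups 6 did, beside 12.8%. SMAD9, a BMP-branch SMAD, had the smallest adjusted p of the list in knock-in against WT, at 0.825 ± 0.091 against 2.37 ± 0.86 FPKM (SD, n = 3; log2 difference -0.85, limma adjusted p = 0.0398), under the fold set for a call. TGFBR3, the co-receptor betaglycan, had the smallest in the treated comparison, 3.07 ± 0.034 FPKM with Activin A against 4.70 ± 0.24 FPKM with SB431542 (-0.48, limma adjusted p = 0.143). Of 12 ligands tested limma called none, with 4 and 2 at an unadjusted p under 0.05, beside the same shares of all genes. The smallest adjusted p values belonged to GDF11 in knock-in against WT (-0.87, limma adjusted p = 0.0305) and BMP6 in the treated comparison. BMP6 was 0.58 ± 0.23 FPKM with Activin A and 0.044 ± 0.015 FPKM with SB431542. It passed the filter only through the Activin A group, so no test is given for it. With the block 1 ligand was called, TGFB2, at 1.91, 1.06 and 1.43 FPKM with Activin A and 5.58, 2.57 and 4.93 FPKM with SB431542 (-1.09, limma adjusted p = 0.0321).

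Secreted antagonists and other intracellular regulators of the pathway were read next. Among 11 secreted antagonists tested in the treated comparison limma called none, with 7 at an unadjusted p under 0.05, beside 12.8% of all genes. The smallest adjusted p belonged to FSTL3, which binds Activin, at 2.84 ± 0.14 FPKM with Activin A and 1.18 ± 0.039 FPKM with SB431542 (SD, n = 3; log2 difference 0.81, limma adjusted p = 0.0424), under the fold. Its relative FST, the Activin antagonist follistatin, was called with the block, at 130, 81.8 and 121 FPKM against 59.8, 30.7 and 47.1 FPKM (1.28, limma adjusted p = 0.0121). In knock-in against WT 3 of 12 rose, beside 1.61% of all genes called higher. They were the proteoglycan DCN (1.49, limma adjusted p = 0.0312) and the BMP antagonists NOG (1.25, 0.0389) and GREM1. The DCN and NOG calls were each lost when any of 4 of the 6 libraries was dropped (adjusted p at most 0.0882 and 0.117). GREM1 is counted in the 3 but averaged 0.091 ± 0.083 FPKM in WT and 1.71 ± 1.2 FPKM in knock-in (SD, n = 3). Its WT mean was under the 0.1 FPKM of the filter, and its difference of 1.23 depends on the added 1 FPKM. No test is therefore given for it. DCN is also on the fibroblast list. Of 34 other intracellular regulators limma called none in the treated comparison, with 5 at an unadjusted p under 0.05, beside 12.8% of all genes. LDLRAD4, a relative of PMEPA1 with the same action, had the smallest adjusted p, at 1.52 ± 0.13 against 0.298 ± 0.070 FPKM (0.96, limma adjusted p = 0.0346), just under the fold. In knock-in against WT PPP1R15A, a phosphatase subunit that SMAD7 recruits to the type I receptor, rose (1.47, limma adjusted p = 0.0251) and MECOM, a zinc finger co-repressor, fell (-1.79, limma adjusted p = 0.0319), and each of these calls held in 2 of 6 fits without a library (adjusted p at most 0.0863 and 0.111).

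Target genes of both branches were called in the knock-in comparison, in which 1.61% of all genes tested were called higher. With Activin A against SB431542, 0.0571% of all genes were called higher, and 0.521% with the block. Of 11 SMAD2/3 targets outside the feedback genes, TAGLN (4.21, limma adjusted p = 0.000664), NANOG (2.06, 0.0250) and CCN2 (1.96, 0.0250) rose in knock-in. TAGLN encodes a smooth muscle actin-binding protein and CCN2 a matrix protein. With Activin A against SB431542 NANOG was the only one called, with a log2 difference of 3.18 (SE 0.35, limma adjusted p = 0.0424), and with the block CCN2 and the stress gene GADD45B were called too. Dropping the second SB431542 library kept the NANOG call, and dropping any other of the 6 ended it (limma adjusted p at most 0.208). In knock-in against WT the NANOG call was kept only when the third WT library was dropped (limma adjusted p at most 0.0794 otherwise). The list's median was -0.058 in the treated comparison and 0.92 in knock-in against WT. Of 16 BMP targets, 7 were called higher in knock-in, beside 1.61% of all genes. Among them were the transcription factor HES1 (2.41, limma adjusted p = 0.00333), the dominant negative helix-loop-helix factors ID3 (1.96, 0.0149) and ID1 (1.56, 0.0231), and TFAP2A (1.56, 0.0186). MSX2 is counted in the 7 but was 0.020, 0.086 and 0.031 FPKM in WT and passed the filter only through the knock-in group. Its difference of 1.70 depends on the added 1 FPKM, so no test is given for it. HES1, also a Notch target, was the only one called with Activin A against SB431542, at 60.7 ± 16 against 7.25 ± 1.5 FPKM (SD, n = 3; 2.88, limma adjusted p = 0.0237), and with the block ID2, HEY1 and GATA2 were called too. The HES1 call in the treated comparison was kept when the first Activin A or the second SB431542 library was dropped and ended when any of the other 4 was (limma adjusted p at most 0.161). In knock-in against WT, HES1 and TAGLN stayed called without each of the 6 libraries, and the other called genes named here lost the call without at least 1.

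**Figure D5:**
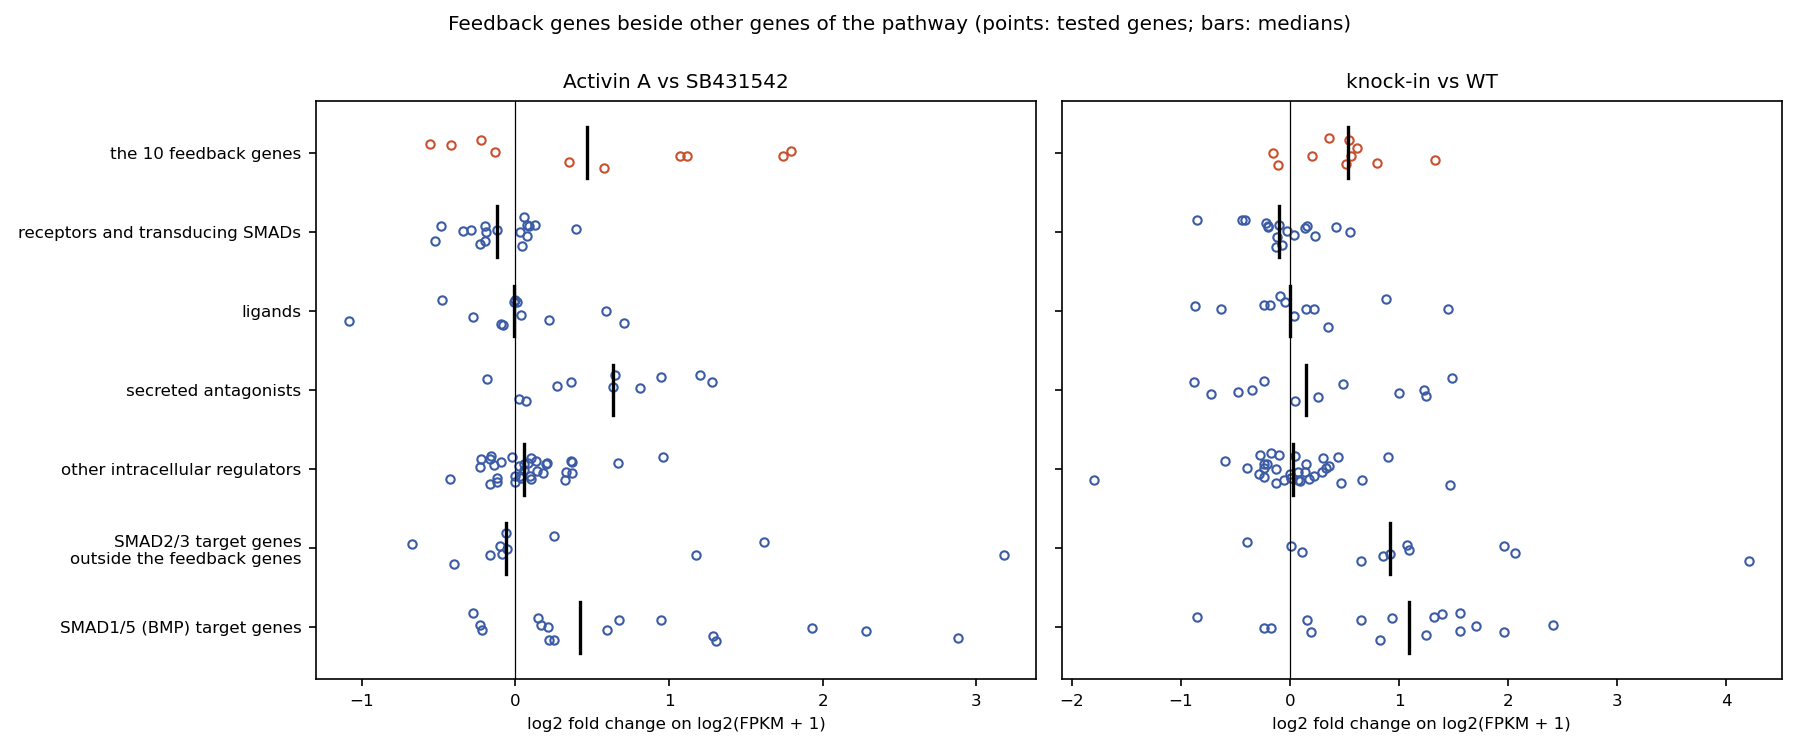
Log2 differences on the log2(FPKM + 1) scale (x axis) of the 10 feedback genes (red) and of 6 lists of other pathway genes (blue), for Activin A against SB431542 (left) and knock-in against WT (right). Each point is a gene that passed the filter, spread vertically for legibility, and bars are medians. In the order of the rows they are 0.46, -0.12, -0.0066, 0.64, 0.056, -0.058 and 0.42 on the left (LEFTY2 included) and 0.53, -0.098, -0.0026, 0.15, 0.027, 0.92 and 1.09 on the right.

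The genes whose pattern over the 12 libraries was most like that of a member were ranked by Pearson's r of log2(FPKM + 1) among 10501 genes with a symbol and a mean of at least 1 FPKM. The libraries form 4 groups from 2 tables, so r here largely describes differences between groups. Most like SMAD7 were PLA2G4A (r = 0.96), FSTL3 (0.92), TNFRSF11B (0.89) and IER5 (0.88). PLA2G4A, a phospholipase, averaged 2.10 FPKM with Activin A and 0.536 to 0.977 FPKM in the other groups. Most like TGIF1 were DCUN1D3, TFAP2A, P2RX7, ENC1 and CH25H, with r from 0.97 to 0.98. DCUN1D3 averaged 3.29 FPKM in WT and 6.45 to 8.26 FPKM elsewhere, the same low WT level that marked TGIF1. Most like SKIL were PDCD11 (0.93), KREMEN1 (0.89), MRTO4 (0.88), CPT1A (0.87) and COMMD9 (0.87). PDCD11, a ribosome assembly factor, averaged 18.3 FPKM in WT, 20.2 FPKM with SB431542, 22.5 FPKM in untreated knock-in and 25.4 FPKM with Activin A.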

How the data were processed

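The deposited FPKM values were made by the authors with HISAT2 2.0.4 on Sscrofa11.1 and StringTie 1.3.3, with counts from featureCounts 1.6.4 that they tested with DESeq2. Only FPKM was analysed here, so the numbers of genes called come from another test than theirs and cannot be read as theirs. All 12 columns matched a label. FPKM is scaled to the library, so a change in total RNA is not seen, and precision was judged from relative depth and the spread of 3 libraries.

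Genes with at least 0.1 FPKM in 3 of 6 libraries were tested within each table with limma 3.58.1 (R 4.3.3) on log2(FPKM + 1), with a variance trend and Benjamini-Hochberg adjustment over all genes tested. This scale understates changes of low genes. The test was checked on simulated data. Symbols came from the files, NANOG's from a table of identifiers, and coordinates from RefSeq. The library numbers were taken to pair the knock-in, Activin A and SB431542 groups because same-numbered libraries deviated together from their group means (r = 0.400, 0.587 and 0.535 between the treated groups). They did not pair knock-in with WT (r = -0.018, 0.0087 and 0.094). All 10 members are reported. In each list the called genes, up to 5, or the gene with the smallest adjusted p were named. Members and lists were chosen with earlier results of these data known. A gene that the rule on similar patterns would name is not reported here.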

Additional observations from a re-analysis of the deposited data

How the results depend on the processing

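No called difference of the members, or of the called genes named from the lists, changed sign under any alternative run on it. SKIL in Activin A against untreated knock-in (0.22) was -0.064 without number 1, and TGIF1 in SB431542 against untreated knock-in (-0.11) was 0.0084. For knock-in against WT, 324 genes were called in the fit reported, 538 and 501 with 0.1 or 0.01 FPKM added before the logarithm, 199 without the filter, 1012 by adjusted p alone, and 145 to 446 without 1 library. With the library number as a replicate block 232 were called, and 13, 66 and 338 with the block when number 1, 2 or 3 was left out, settings chosen after seeing the data. TGIF1 was called in all of these but the block without number 1, where none of the 10 members was (0 called, limma adjusted p = 0.0705). For Activin A against SB431542, 13 genes were called in the fit reported, 8 with 0.01 FPKM added, 5 without the filter, 5 with a filter of 1 FPKM, 7 without the variance trend, 99 with the replicate block, 0 to 5 without 1 library, and 2, 66 and 87 with the block and without number 1, 2 or 3. The members called there, LEFTY2 counted, went from 2 to 1 without the filter, 1 with the 1 FPKM filter, 1 without the trend (SMAD7 was called in each, and LEFTY2, listed at 0 with SB431542, has no valid test), 0 without 1 library, 4 with the block (3 without LEFTY2) and 0 with the block without number 1. PMEPA1 was called with median-ratio scaling (limma adjusted p = 0.0499). Against untreated knock-in, the members past the fold went from 1 to 2 with Activin A under 0.1 or 0.01 FPKM added or TPM scaling, and from 1 to 2 with SB431542 under 0.1 or 0.01 FPKM added; the second was LEFTY2 each time, whose size with SB431542 is set by the added value. Added values and filters act most on low genes such as LEFTY2 and SMAD7; the other causes were not tested. With 3 libraries a group, depth is not known in reads and an FPKM of 0 sets no limit on expression.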
